A study of Mus musculus with 14 samples.

Results

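The 9 genes described here are Nfkb1, Rel, Rela, Nfkbia, Nfkbiz, Tnfaip3, Tnf, Bcl2a1b and Map3k8, which belong to the NF-kB pathway and were chosen by name from the 47729 genes measured. The choice was made with earlier results of these data known. NF-kB is a family of dimeric transcription factors held in the cytoplasm by inhibitor proteins, until signals from receptors for cytokines and microbial products lead to phosphorylation and loss of the inhibitor. The freed dimers enter the nucleus and bind kappa-B sites. Several of the genes they switch on encode inhibitors of the pathway, which end the response, and in macrophages and microglia others encode TNF, chemokines and survival proteins.

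Microglia, the resident macrophages of the retina, of 14 mouse retinas were profiled by SMART-Seq2, which amplifies whole cDNAs from few cells. All donors were wild type C57BL/6 mice aged 12 weeks. The groups were 3 retinas injected with microbeads (microbead, labelled glaucoma), 3 from the eye opposite such an injection (contralateral), 4 given a sham injection (sham) and 4 that had no treatment (naïve, written naive below). Cells were sorted with antibodies as CD11b+, Ly6c- and Fcrls+, and 100 to 600 were collected from a retina. The labels do not say whether retinas of 1 group came from separate mice, so p-values here measure the spread between libraries, which may be in part technical. Nor do they say which microbead and contralateral retinas came from 1 mouse, so these were fitted as unpaired. Names of the deposited tables carry codes that look like plate wells, though no label says what they are. Read as wells, the codes would put microbead and contralateral libraries in another column than sham and naive libraries. In that reading column and group cannot be told apart when microbead or contralateral libraries are set against naive or sham libraries. Eye pressure and nerve damage were not analysed here.

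Libraries held 1.34 to 13.996 M reads assigned to genes, with a median of 11.5 M. Microbead 1, the shallowest at 1.34 M, and contralateral 2 had reads in 10167 and 10306 genes, and no other library had fewer than 12000. Transcripts of Itgam, which encodes CD11b, lay between 281 and 589.8 CPM (reads scaled to library size) in the 14 libraries and those of Fcrls between 292 and 999.6 CPM. Ly6c2 had 0 reads in every library. A length difference was scored on the log2 scale after the naive average had been subtracted from every gene. It is the shift of short genes, up to 1000 bases, minus that of long genes, over 4000 bases. It was 0.79 to 1.90 in microbead libraries and -0.28 to 0.87 in contralateral libraries. The same difference was -0.05 to 0.15 in sham and -0.28 to 0.16 in naive libraries. Naive libraries served as the reference, so their values are centred by construction. The part of this length difference in the results below was not tested except where a value with the length trend removed is given.

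All 9 genes passed the filter on low counts in the shared fit, in which 14279 genes were tested. Their transcripts differ in length, so levels were set side by side as FPKM, which is scaled to transcript length. Nfkbia and Bcl2a1b stood highest, with 422 ± 201 and 401 ± 153 FPKM (mean ± SD, n = 14), and their order was not fixed, since Nfkbia was the higher of the pair in 6 of 14 libraries. Tnf followed with 121 ± 60.5 FPKM and was below Bcl2a1b in 13 of 14 libraries. Nfkb1 had 73.3 ± 19.98 FPKM and Nfkbiz 68.3 ± 36.2 FPKM, and Nfkb1 was the higher in 8 of 14 libraries. Rela averaged 46.4 ± 20.1 FPKM, Map3k8 24.6 ± 13.9 FPKM, Tnfaip3 20.8 ± 9.27 FPKM and Rel 16.2 ± 5.04 FPKM. The inhibitor IκBα and the survival protein gene were thus the most abundant of these messages per length, and each of the 3 subunits lay below them in mean level.

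**Figure D1:**
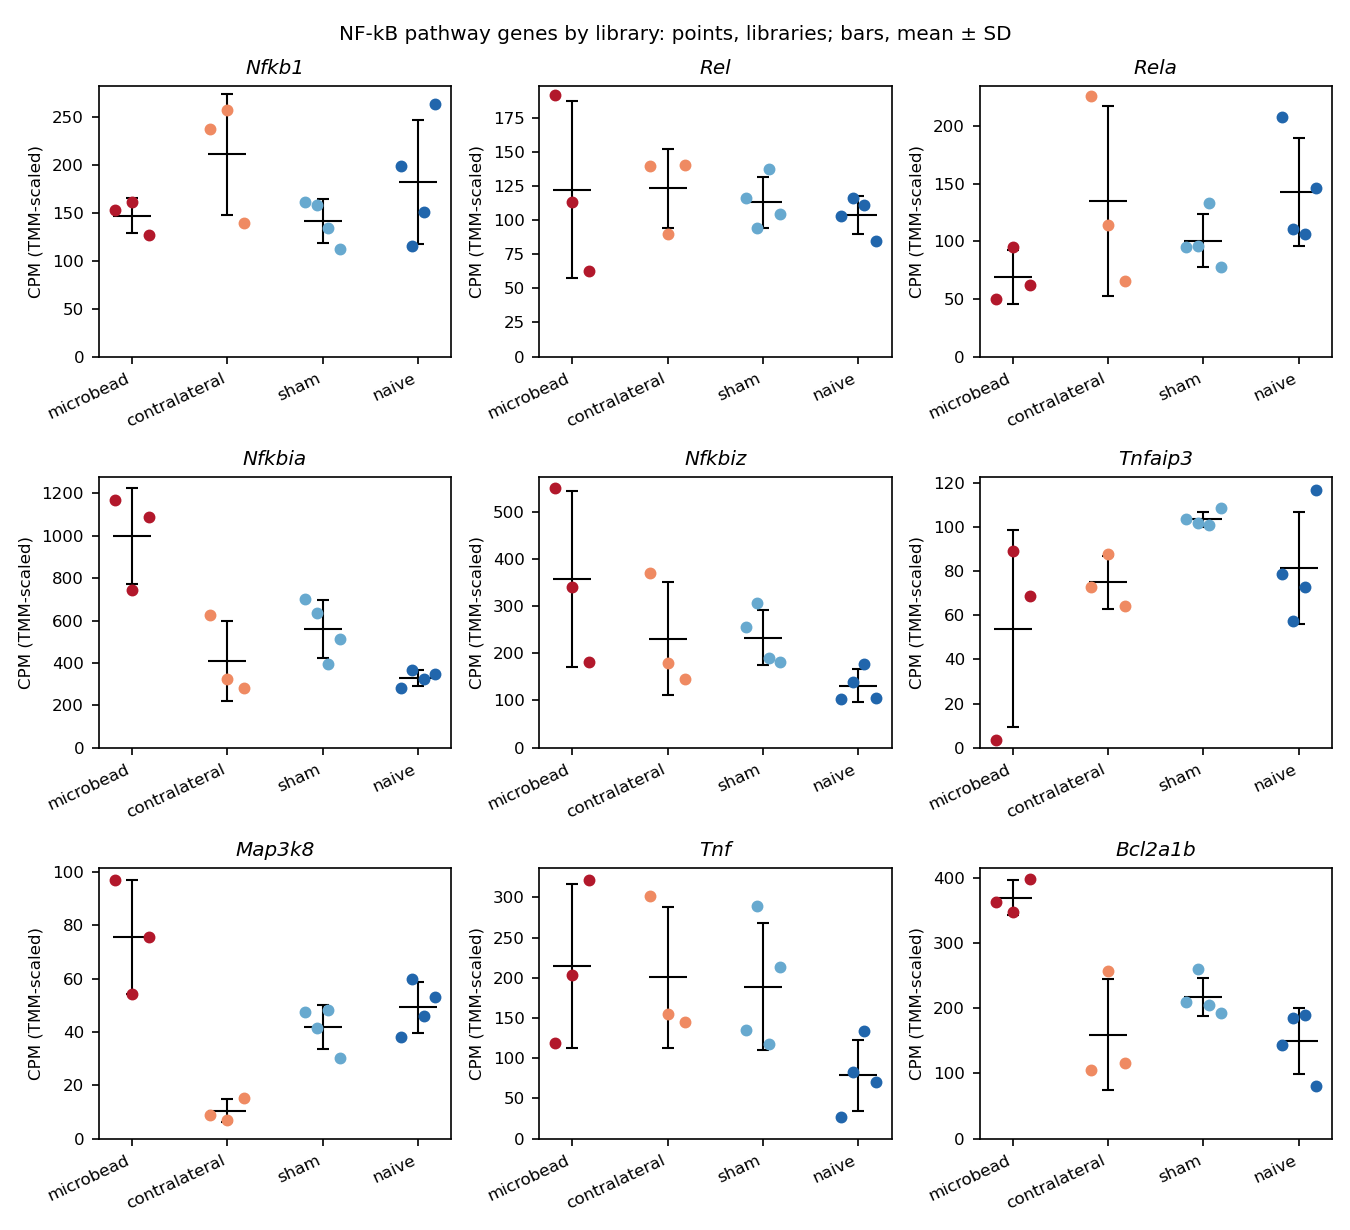
TMM-scaled CPM of each of the 9 genes, on linear axes from 0 that differ between panels, with 1 point per library, bars at the mean ± SD, and the groups microbead, contralateral, sham and naive. Nfkbia lies at 743 to 1170 CPM in microbead libraries, above the 282 to 369 CPM of naive libraries, and Map3k8 is lowest in the 3 contralateral libraries, at 6.94 to 15.2 CPM.

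Nfkb1 (ENSMUSG00000028163.17, chr3:135584655-135691547, minus strand, mm10) encodes the precursor of the DNA-binding p50 subunit. It had 153, 161 and 127 CPM in microbead libraries and 237, 257 and 139 CPM in contralateral libraries, against 162, 158, 134 and 112 CPM in sham and 198, 115, 150.4 and 264 CPM in naive libraries. These ranges overlapped, and microbead against naive had a log2 fold change of -0.31 ± 0.34 (SE; edgeR quasi-likelihood test, Benjamini-Hochberg adjusted p = 0.845). With the length trend removed this value was 0.24, so no direction is given for Nfkb1. Microbead against contralateral gave -0.52 ± 0.36 (edgeR adjusted p = 0.593).

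Rel (ENSMUSG00000020275.9, chr11:23736847-23770970, minus strand) encodes c-Rel, a transactivating subunit prominent in blood and immune cells. Its level was 192, 113 and 62.6 CPM in microbead, 139.8, 89.9 and 140.5 CPM in contralateral, 116, 94.0, 138 and 105 CPM in sham and 103, 116, 111 and 84.9 CPM in naive libraries. Microbead libraries held both the highest and the lowest value of the 14, and their coefficient of variation was 53.1%, against 13.3% in naive libraries. The log2 fold change of microbead against naive was 0.23 ± 0.38 (edgeR adjusted p = 0.918), and it was 0.82 with the length trend removed and -0.26 when microbead 1 was left out.

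Rela (ENSMUSG00000024927.7, chr19:5637483-5648130, plus strand) encodes the main transactivating subunit of NF-kB. It was read at 50.3, 94.8 and 61.9 CPM in microbead, 226, 114 and 65.2 CPM in contralateral, 95.3, 96.3, 133 and 77.7 CPM in sham and 208, 111, 106 and 147 CPM in naive libraries. All 3 microbead values lay below all 4 naive values. Microbead against naive gave a log2 fold change of -1.05 ± 0.44 with an unadjusted p of 0.0277, and the difference did not pass over all genes (edgeR adjusted p = 0.425). Against sham it was -0.54 ± 0.43 (edgeR adjusted p = 0.754) and against contralateral -0.96 ± 0.46 (edgeR adjusted p = 0.434), or -0.37 without contralateral 1. With the length trend removed, the values were -0.61 against naive, -0.11 against sham and -1 against contralateral.

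Nfkbia was the only one of the 9 genes that passed the test in any pair of groups. It encodes IκBα, the inhibitor that masks the nuclear import signal of NF-kB dimers and is itself made anew when NF-kB is active (ENSMUSG00000021025.7, chr12:55489410-55492647, minus strand). Microbead libraries had 1170, 743 and 1089 CPM of Nfkbia and contralateral libraries 628, 323 and 279.9 CPM, against 702, 635, 394 and 513 CPM in sham and 282, 369, 322 and 347 CPM in naive libraries. The lowest microbead library stood above the highest of each other group, and the 4 sham libraries stood above the 4 naive ones. Nfkbia rose to a mean of 1000 ± 227 CPM (SD, n = 3) in microbead libraries, against 330.1 ± 37.2 CPM (n = 4) in naive libraries, which was 3.03-fold, or 1.60 ± 0.30 on the log2 scale (edgeR quasi-likelihood test, Benjamini-Hochberg adjusted p = 0.0339). It was the 1 member called among the 9 in microbead against naive, where 0.21% of all genes tested were called. Over 15 alternative settings the log2 fold change lay between 1.45 and 1.94, and the call was lost in 9 of them. Without microbead 1 the edgeR adjusted p was 0.0922, and leaving out a naive library gave 0.107, 0.127, 0.139 and 0.114 for naive 1 to 4. With the length trend removed the log2 fold change was 1.94 and the edgeR adjusted p 0.14.

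**Figure D2:**
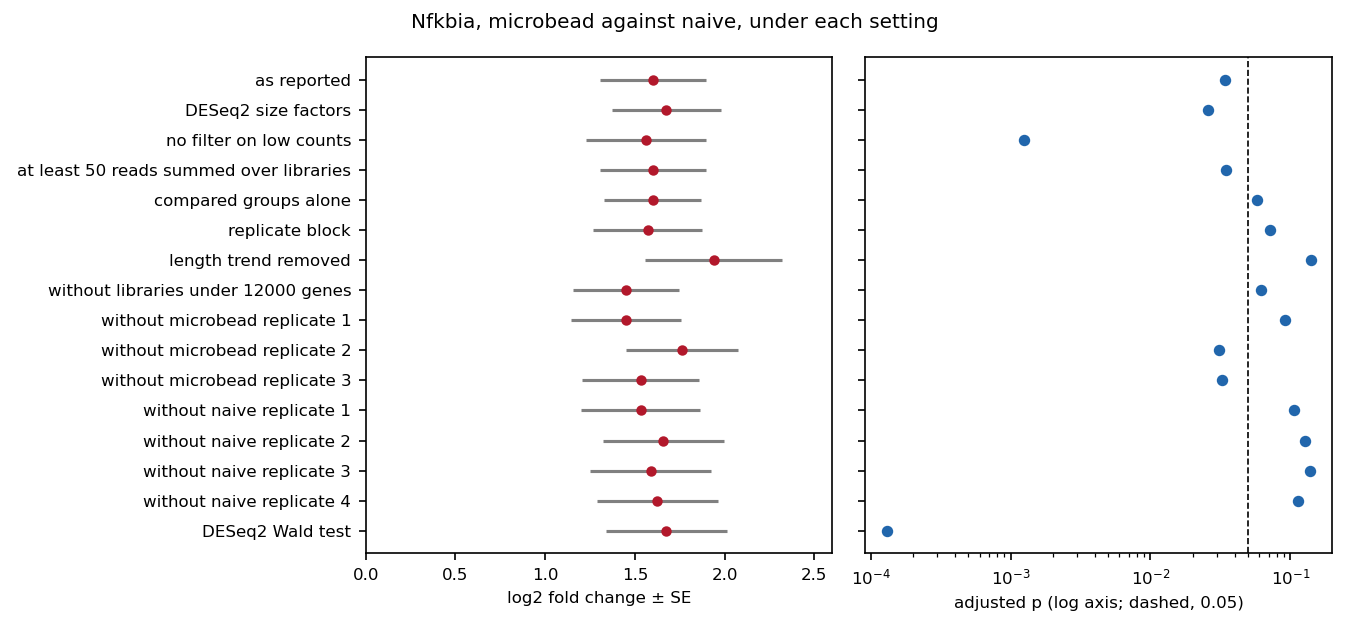
Log2 fold change of Nfkbia, microbead over naive, under the reported fit and each alternative setting, with bars of 1 SE (left) and the adjusted p on a log axis with a dashed line at 0.05 (right). All values lie between 1.45 and 1.94, and the settings differ in whether the adjusted p is under 0.05.

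Nfkbia in the other pairs had no adjusted p under 0.05 in the reported fit. In microbead against contralateral the log2 fold change was 1.29 ± 0.32 (unadjusted p = 0.000831, edgeR adjusted p = 0.116). It passed in 2 of 14 alternative settings, without a filter (edgeR adjusted p = 0.0457) and by the Wald test of DESeq2 (adjusted p = 0.00643). Against sham the log2 fold change was 0.83 ± 0.29, with a 95% interval of 0.22 to 1.45 (unadjusted p = 0.0108, edgeR adjusted p = 0.358). The value for sham against naive was of like size, 0.76 ± 0.28 (unadjusted p = 0.0124, edgeR adjusted p = 1). The joint test of the 4 groups gave Nfkbia an edgeR adjusted p of 0.0611 and called 0 of the 9 genes, while 0.224% of all genes were called. Unadjusted p under 0.05 in that test was found for 5 of the 9, Nfkbia, Map3k8, Bcl2a1b, Nfkbiz and Tnf, and for 8.17% of all genes.

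The promoter of Nfkbia is shown because the gene is a target of the factor its protein inhibits, and that of Tnfaip3 because it is another feedback inhibitor whose message did not pass the test. Each line gives the 250 bases before the RefSeq start site of the gene (GRCm38.p6), read 5′ to 3′ on its own strand, and capitals mark matches to the kappa-B consensus. The windows are chr12:55492648-55492897, minus strand, for Nfkbia and chr10:19015411-19015660, minus strand, for the start of Tnfaip3 that is farther upstream.
Nfkbia: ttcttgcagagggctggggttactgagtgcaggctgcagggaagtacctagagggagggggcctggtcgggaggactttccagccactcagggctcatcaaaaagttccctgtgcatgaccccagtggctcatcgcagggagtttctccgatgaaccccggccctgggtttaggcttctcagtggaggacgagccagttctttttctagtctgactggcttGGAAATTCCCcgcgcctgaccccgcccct
Tnfaip3: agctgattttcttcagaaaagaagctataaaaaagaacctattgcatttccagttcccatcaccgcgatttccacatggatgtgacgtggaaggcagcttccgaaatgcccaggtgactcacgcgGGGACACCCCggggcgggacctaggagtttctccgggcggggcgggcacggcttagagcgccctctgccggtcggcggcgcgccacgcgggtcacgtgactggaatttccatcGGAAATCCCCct
The match in Nfkbia spans bases 29 to 20 before the start, and those in Tnfaip3 span bases 125 to 116 and 12 to 3. The consensus, searched under its name on both strands with overlapping matches merged, was found in 7.28% of 32544 such mouse windows, and 0.396% held at least 2 matches. Of the 6 members with a window that was searched, Rel also held a match, at bases 92 to 82, and no match to these letters was found in the windows of Rela, Tnf and Bcl2a1b or at the second Tnfaip3 start. Nfkb1 and Nfkbiz had no entry, and the promoter of Map3k8 was not used here. A match is a description of the letters and was not measured as a site of binding.

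Nfkbiz (ENSMUSG00000035356.16, chr16:55811375-55838899, minus strand) encodes IκBζ, a nuclear member of the IκB family that is induced by NF-kB and adjusts which targets are transcribed. It had 552, 342 and 181 CPM in microbead, 369.6, 179 and 146 CPM in contralateral, 255, 306, 191 and 183 CPM in sham and 104, 139.6, 178 and 105 CPM in naive libraries. The 3 microbead and the 4 sham libraries each stood above all 4 naive libraries, while microbead and sham overlapped. The log2 fold change of microbead against naive was 1.44 ± 0.39, with an unadjusted p of 0.00173, and did not pass over all genes (edgeR adjusted p = 0.136). The Wald test of DESeq2 gave 1.55 (adjusted p = 0.0181). The edgeR value was 0.96 without microbead 1, 2.05 with the length trend removed and 1.75 without microbead 3, where the edgeR adjusted p was 0.0373. Against sham it was 0.61 ± 0.39 (edgeR adjusted p = 0.638), and 0.14 without microbead 1. Against contralateral it was 0.63 ± 0.42 (edgeR adjusted p = 0.579), 0.22 without microbead 1, and 0.04 without both libraries under 12000 genes.

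Tnfaip3 (ENSMUSG00000019850.11, chr10:19000910-19015657, minus strand) encodes a ubiquitin-editing enzyme that shuts off signalling between the TNF receptor and the IκB kinase. It was at 3.59, 89.5 and 69.1 CPM in microbead, 72.8, 88.0 and 64.2 CPM in contralateral, 104, 102, 101 and 109 CPM in sham and 79.0, 57.5, 72.9 and 117 CPM in naive libraries. The lowest value, in microbead 1, rests on 5 reads in the shallowest library. Sham libraries were close together, with a coefficient of variation of 3.28%, and all 3 microbead and all 3 contralateral libraries lay below them. Tnfaip3 had a log2 fold change of -0.58 ± 0.61 for microbead against naive (edgeR adjusted p = 0.833) and -0.93 ± 0.62 for microbead against sham (edgeR adjusted p = 0.665). Without microbead 1 these values were -0.06 and -0.41, and the value against sham was -1.51 without microbead 2. Among the 3 inhibitor genes, the microbead mean was thus above the naive mean for Nfkbia and Nfkbiz and below it for Tnfaip3, and the differences between genes were not tested.

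Map3k8 (ENSMUSG00000024235.10, chr18:4331327-4353015, minus strand) encodes a kinase that is bound by the Nfkb1 precursor protein and, when released, activates the ERK pathway. Microbead libraries had 97.0, 54.2 and 75.7 CPM and contralateral libraries 8.94, 6.94 and 15.2 CPM, against 47.5, 41.6, 48.3 and 30.3 CPM in sham and 38.0, 60.02, 46.0 and 53.0 CPM in naive libraries. The 3 contralateral values were below all 11 others. The log2 fold change of microbead against contralateral was 2.86 ± 0.59, or 7.26-fold, with a 95% interval of 1.62 to 4.10 and an unadjusted p of 0.000127, and it did not pass over all genes (edgeR adjusted p = 0.0745). It passed in 3 of 14 alternative settings and failed in the other 11, where the edgeR adjusted p reached 0.825. The 3 were leaving out microbead 3 (edgeR adjusted p = 0.0384) or contralateral 3 (0.0449) and the Wald test of DESeq2 (4.36e-07). Contralateral against naive gave -2.24 ± 0.56 (unadjusted p = 0.000763, edgeR adjusted p = 0.949), and contralateral against sham gave -2.01 ± 0.55 (unadjusted p = 0.00179, edgeR adjusted p = 0.963). These 3 contrasts share the contralateral libraries. Microbead against sham gave 0.85 ± 0.51 (edgeR adjusted p = 0.613) and microbead against naive 0.62 ± 0.51 (edgeR adjusted p = 0.741), and with the length trend removed these values were 1.45 and 1.21.

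Tnf (ENSMUSG00000024401.14, chr17:35199381-35202007, minus strand) encodes tumour necrosis factor, a cytokine that is a target of NF-kB and, through its receptors, an activator of it. Its level was 119, 203 and 322 CPM in microbead, 302, 155 and 145 CPM in contralateral, 135, 289.7, 117 and 213 CPM in sham and 27.0, 83.3, 134 and 70.9 CPM in naive libraries. The group means were close in microbead, contralateral and sham libraries, at 215 ± 102, 200.5 ± 88.0 and 189 ± 79.1 CPM, and the naive mean was lower in value, at 78.7 ± 43.9 CPM. Naive 3 lay within the microbead and sham ranges, and the contralateral libraries were all above naive ones. Each group set against naive gave a log2 fold change of similar size: 1.45 ± 0.48 for microbead (unadjusted p = 0.00775, edgeR adjusted p = 0.278), 1.35 ± 0.48 for contralateral (0.0121 and 0.949) and 1.26 ± 0.46 for sham (0.0127 and 1). None passed, and the 3 contrasts share the naive libraries.

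Bcl2a1b (ENSMUSG00000089929.1, chr9:89199209-89207827, plus strand) encodes an anti-apoptotic protein of the BCL2 family. It had 363, 347 and 399 CPM in microbead, 105, 258 and 116 CPM in contralateral, 209.9, 260.4, 206 and 193 CPM in sham and 144, 185, 189 and 81.0 CPM in naive libraries. Every microbead library stood above all 11 others, and the microbead libraries varied little, with a coefficient of variation of 7.21%. The log2 fold change of microbead was 1.305 ± 0.35 against naive (unadjusted p = 0.00153, edgeR adjusted p = 0.129), 0.77 ± 0.35 against sham (edgeR adjusted p = 0.491) and 1.21 ± 0.38 against contralateral (edgeR adjusted p = 0.23). Bcl2a1b is the shortest of the 9 genes, at 817 bases, and with the length trend removed these values were 0.68, 0.17 and 0.48. By the Wald test of DESeq2 the adjusted p was 0.0136 against naive and 0.0378 against contralateral. Against sham no alternative had an adjusted p under 0.262.

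Reads of Bcl2a1b may be shared with near-identical copies on chromosome 9, so its counts are uncertain. The first 60 coding bases of the transcripts in GENCODE M21 are shown, with capitals at the 6 positions where the copies differ.
Bcl2a1a: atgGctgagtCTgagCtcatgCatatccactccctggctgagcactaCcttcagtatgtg
Bcl2a1b: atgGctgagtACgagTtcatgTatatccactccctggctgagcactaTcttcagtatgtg
Bcl2a1d: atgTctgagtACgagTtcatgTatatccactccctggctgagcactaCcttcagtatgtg
Over 519 coding bases Bcl2a1b was 97.88% identical to Bcl2a1a and 98.84% identical to Bcl2a1d, and 12 positions varied among the 3. The authors' counting gave Bcl2a1b between 62.9% and 81% of the reads of the 3 copies in each library. The sum of the copies, in which the split does not matter, was 489.6 ± 37.3 CPM in microbead, 241 ± 144 CPM in contralateral, 289 ± 35.8 CPM in sham and 206 ± 63.1 CPM in naive libraries. Tested as 1 gene, the sum had log2 fold changes of 1.25 against naive (edgeR adjusted p = 0.137), 0.76 against sham and 1.02 against contralateral for microbead, close to those of Bcl2a1b alone.

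**Figure D3:**
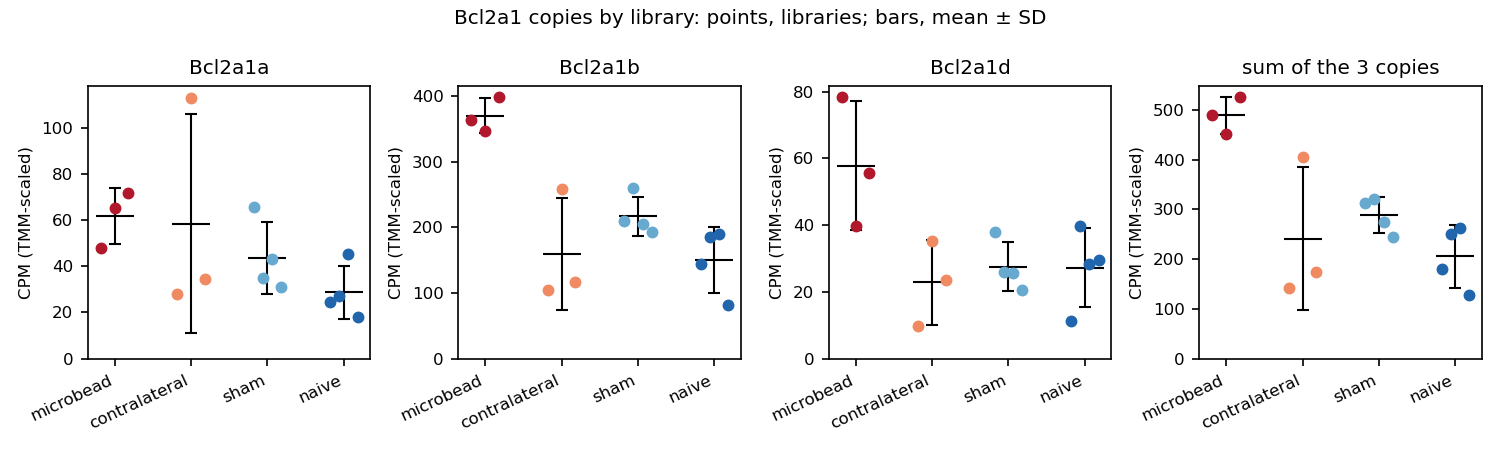
TMM-scaled CPM assigned to Bcl2a1a, Bcl2a1b, Bcl2a1d and their sum, with 1 point per library and bars at the mean ± SD of the microbead, contralateral, sham and naive groups; axes start at 0 and differ between panels. The sum is highest in the 3 microbead libraries, at 452 to 527 CPM.

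Since the members were chosen with earlier results of these data known, the shares of all genes given beside their counts are a description. They are no test of the set. Of the 6 pairs of groups, microbead against naive had the most members at an unadjusted p under 0.05, 5 of 9, against 10.5% of all genes. By non-overlap, 3 genes (Nfkbia, Nfkbiz and Bcl2a1b) were higher in every microbead library than in any naive library, as were 4.85% of all genes, and Rela was lower, as were 6.98%. Of the 9 log2 fold changes 6 were above 0, as were 45% of those of all genes. The median log2 fold change of the 9 was 0.62, beside -0.14 for all genes tested. In microbead against sham 0 members passed, where 0.014% of all genes did, with 2 at an unadjusted p under 0.05 (9.75% of all genes). Nfkbia, Bcl2a1b and Map3k8 were higher without overlap (5.11% of all genes) and Tnfaip3 lower (7.08%). Above 0 lay 7 of the 9 log2 fold changes (45.7% of all genes), and their median was 0.19, beside -0.12 for all genes. Microbead against contralateral also called 0 members, with 0.028% of all genes called, and 3 had an unadjusted p under 0.05 (11.5% of all genes). The same 3 genes, Nfkbia, Bcl2a1b and Map3k8, were higher without overlap (5.2% of all genes), and 0 were lower (5.64%). There 5 of the 9 values lay above 0 (46.9% of all genes), and the medians were 0.10 for the 9 and -0.08 for all genes.

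Among sham, naive and contralateral libraries no member passed the test. Sham against naive called 0 of 14279 genes (0%), although 3 members, Nfkbia, Nfkbiz and Tnf, had an unadjusted p under 0.05, as did 2.66% of all genes. The 4 sham libraries were above the 4 naive libraries without overlap for Nfkbia, Nfkbiz and Bcl2a1b (1.61% of all genes), and 0 members were lower in this sense (1.37%). In sum 6 of 9 values were above 0 (48.7% of all genes). The log2 fold changes of sham against naive were 0.83 ± 0.37 for Nfkbiz, 0.54 ± 0.33 for Bcl2a1b, 0.35 ± 0.56 for Tnfaip3 and 0.12 ± 0.35 for Rel, and -0.51 ± 0.39 for Rela, -0.36 ± 0.31 for Nfkb1 and -0.23 ± 0.48 for Map3k8 (edgeR adjusted p = 1 for each). All sham and all microbead libraries thus stood above all naive libraries for Nfkbia, Nfkbiz and Bcl2a1b, in contrasts that share the naive libraries. Contralateral against naive called 0 genes (0%) with Map3k8 and Tnf at an unadjusted p under 0.05 (5.18% of all genes). Tnf was higher without overlap (2.49% of all genes) and Map3k8 lower (3.73%), 6 of 9 values were above 0 (47.4% of all genes), and Nfkbiz had a log2 fold change of 0.81 ± 0.39 (edgeR adjusted p = 0.955). Contralateral against sham called 0 genes (0%), with Map3k8 at an unadjusted p under 0.05 (4.86% of all genes) and with Map3k8 and Tnfaip3 lower without overlap (3.88%), 0 higher (2.04%), and 4 of 9 values above 0 (48.2% of all genes).

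**Figure D4:**
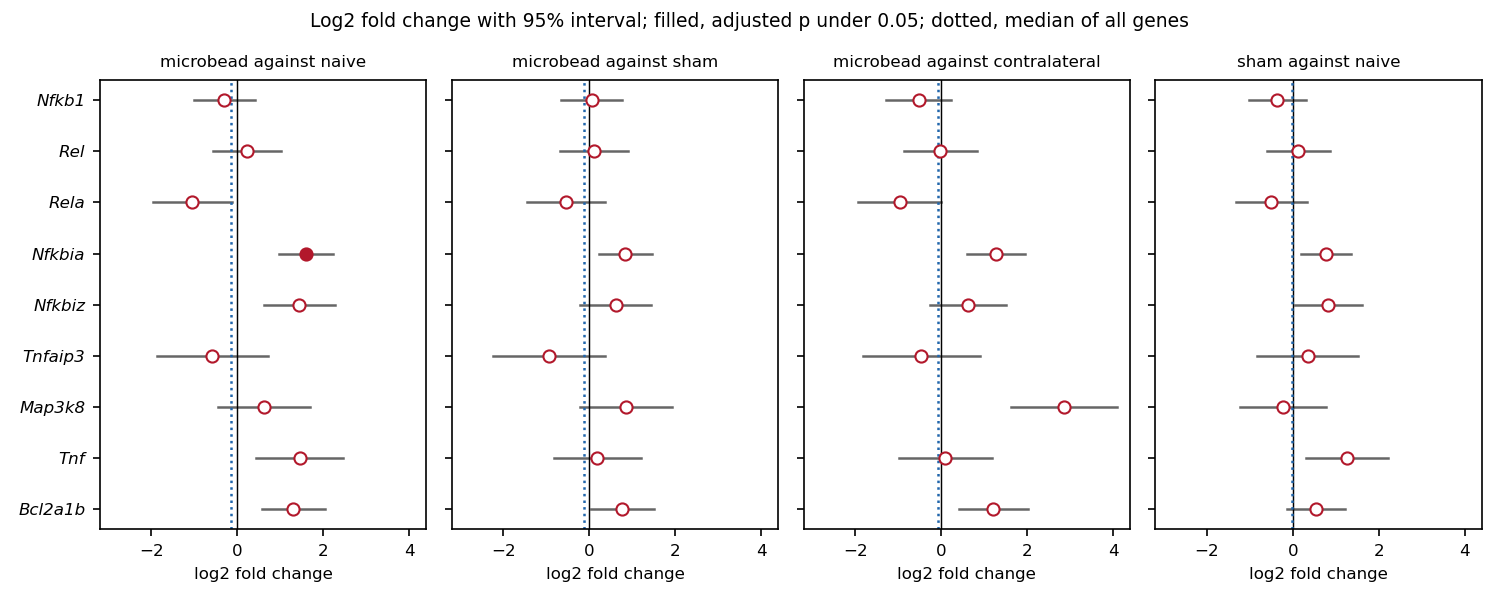
Log2 fold changes of the 9 genes with 95% intervals in microbead against naive, sham and contralateral libraries and in sham against naive libraries, with a dotted line at the median of all genes. Nfkbia against naive, at 1.60, is the 1 value with an adjusted p under 0.05, and the interval of Map3k8 against contralateral runs from 1.62 to 4.10.

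The wider pathway was described with 71 genes in 5 lists, of which 69 were tested. These lists include the members described above, so their counts and medians are not separate from the members' values. The lists too were chosen with earlier results of these data known, so their counts beside all genes are a description. In microbead against naive, 0 of 5 subunit genes, 1 of 12 inhibitor genes (Nfkbia), 0 of 12 kinase genes, 0 of 14 receptor and adaptor genes and 1 of 26 tested target genes (Ccl2) rose, and 0 fell, where 0.189% of all genes rose and 0.021% fell. The other targets, Il12b and Cxcl1, did not pass the filter on low counts. Median log2 fold changes were -0.31 for subunits, 0.73 for inhibitors, -0.28 for kinases, -0.32 for receptors and adaptors and 1.05 for targets. The fold changes of 9 of 12 inhibitors and of 20 of 26 targets were above 0, as were those of 45% of all genes. In microbead against sham and against contralateral, and in sham against naive, 0 genes of the 5 lists passed. The median of the targets was 0.41 against sham and 0.31 against contralateral for microbead libraries, and 0.57 for sham against naive, while that of the inhibitors was 0.38, 0.63 and 0.64 in the same contrasts. Kinases had medians of 0.22, 1.06 and -0.12, subunits -0.03, -0.39 and -0.36, and receptors and adaptors -0.03, -0.18 and 0.09.

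**Figure D5:**
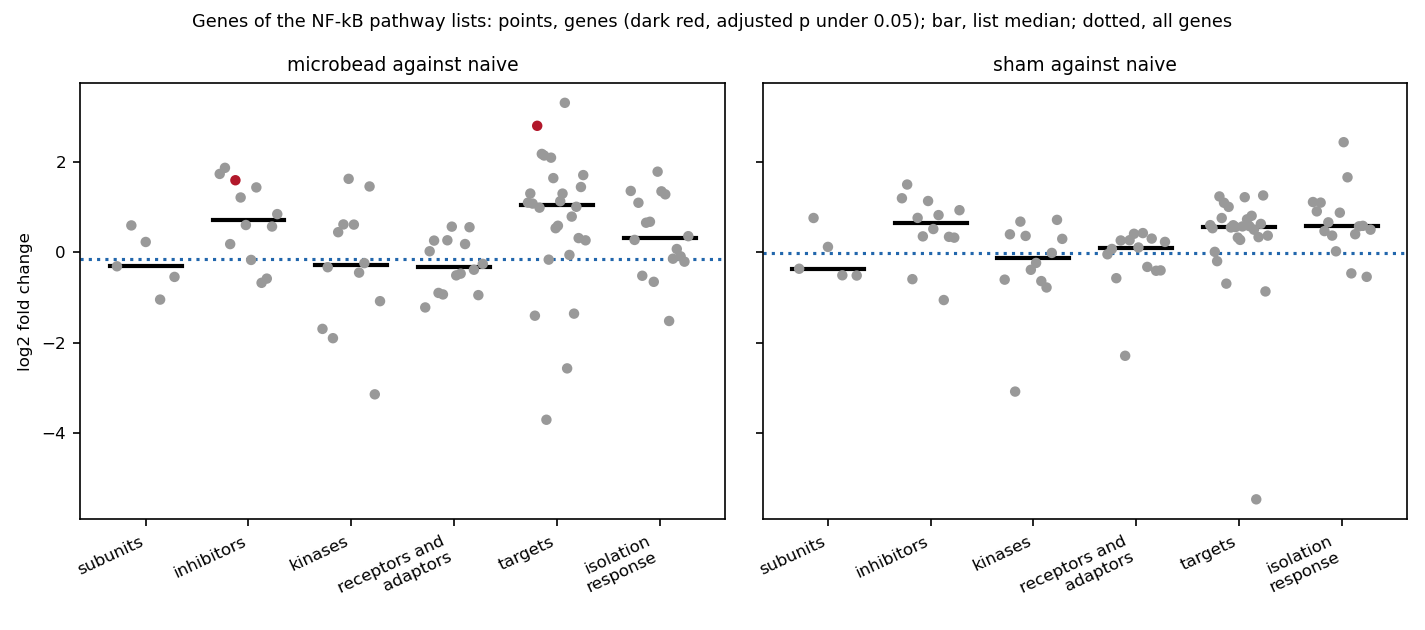
Log2 fold change of each tested gene of the 5 pathway lists and of 16 isolation-response genes in microbead against naive (left) and sham against naive (right), with a bar at each list's median, a dotted line at the median of all genes and dark red points for an adjusted p under 0.05. On the left, targets and inhibitors have medians of 1.05 and 0.73, and subunits, kinases and receptors medians between -0.32 and -0.28.

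Ccl2, a chemokine that draws monocytes through the receptor CCR2, rose to 443 ± 119 CPM in microbead libraries, against 63.3 ± 32.2 CPM in naive libraries (log2 fold change 2.81 ± 0.50, edgeR adjusted p = 0.0281), and the call was lost in 7 of 15 alternatives, among them leaving out microbead 1 (0.0729) and removing the length trend, which gave a log2 fold change of 2.21 (0.276). Ccl4, another chemokine, averaged 675 ± 422 CPM in microbead and 149 ± 87.9 CPM in naive libraries, without overlap (edgeR adjusted p = 0.0651). Its log2 fold change of 2.18 was 1.15 with the length trend removed and 1.52 when microbead 1 was left out. It passed in 3 of 15 alternatives. These were leaving out microbead 3 (edgeR adjusted p = 0.0287), no filter (edgeR adjusted p = 1.4e-05) and the Wald test of DESeq2 (adjusted p = 0.0013). Of the kinase list, Tab2, an adaptor that brings the kinase TAK1 to ubiquitin chains, had 194 ± 120 CPM in microbead and 70.4 ± 24.0 CPM in naive libraries (edgeR adjusted p = 0.291), with a log2 fold change of 1.46, or 2.06 with the length trend removed. Map3k7, which encodes TAK1, had 87.0 ± 57.7 and 28.01 ± 7.55 CPM in microbead and naive libraries (edgeR adjusted p = 0.435), and its log2 fold change of 1.63 was 2.26 with the length trend removed and 0.92 when microbead 1 was left out. Irak2, a kinase of the Toll-like receptor pathway, had 64.0 ± 30.0 CPM in microbead and 120.1 ± 19.2 CPM in naive libraries (edgeR adjusted p = 0.427). Birc2, a ubiquitin ligase at the TNF receptor, had 12.4 ± 6.00 CPM in microbead and 29.1 ± 10.9 CPM in naive libraries (edgeR adjusted p = 0.608). Apart from Ccl2, none of these passed.

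Many NF-kB targets also respond to cell isolation, so genes of that response were read beside them. Of 16 such genes 0 passed in microbead against naive, where 0.21% of all genes did. There 10 had a log2 fold change above 0 and 6 below it (45% of all genes above 0), with a median of 0.32, beside -0.14 for all genes. In microbead against sham and against contralateral 4 were above 0 and 12 below it, where 45.7% and 46.9% of all genes were above 0. The medians were -0.44 and -0.53, beside -0.12 and -0.08 for all genes. The 3 genes with the smallest p against naive all had higher microbead means. Hsp90aa1, a chaperone, had 733 ± 566 CPM in microbead and 212 ± 38.2 CPM in naive libraries (edgeR adjusted p = 0.144), and its log2 fold change of 1.79 was 0.98 without microbead 1. Hsp90aa1 passed in 3 of 15 alternatives. Atf3, a stress-induced transcription factor, had 545 ± 118 CPM in microbead and 212 ± 76.0 CPM in naive libraries (edgeR adjusted p = 0.32), and it passed in 1 of 15 alternatives. Dnajb1, a co-chaperone, had 305 ± 127 CPM in microbead and 142 ± 31.3 CPM in naive libraries (edgeR adjusted p = 0.333), with a log2 fold change of 1.10, or 1.71 with the length trend removed. Summed over the list, CPM ran from 12100 to 24030 in microbead, 14640 to 29600 in contralateral, 18740 to 25710 in sham and 9299 to 18230 in naive libraries. All 4 sham libraries were above all naive libraries in this sum. In sham against naive 14 of 16 genes had a fold change above 0 (48.7% of all genes), with a median of 0.58, beside -0.02 for all genes. Contralateral against naive had 15 of 16 above 0 (47.4% of all genes), with a median of 0.69, beside -0.06 for all genes. The part of this response in the values of Nfkbia, Nfkbiz and Tnf was not tested.

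Markers of other cells were read in the same way, since in bulk libraries fewer cells of a type and less RNA per cell cannot be told apart. The 10 monocyte markers summed to 76.8 to 182 CPM in microbead, 2.68 to 68.6 CPM in contralateral, 7.37 to 113 CPM in sham and 2.31 to 13.7 CPM in naive libraries, with Ly6c2 and Chil3 at 0 in the microbead libraries. Microbead libraries were above naive libraries in this sum without overlap, though different markers made it up. In microbead 1 all of it was Cd44, at 76.8 CPM, while Ccr2, Fn1 and S100a4 were at 0. Fn1 was the largest part in microbead 2, at 111 CPM, and in microbead 3, at 38.3 CPM. The part of this sum in the values of Nfkbia was not tested. The 8 border macrophage markers summed to 94.8 to 112 CPM in microbead, 43.5 to 330.3 CPM in contralateral, 41.2 to 203 CPM in sham and 21.7 to 142 CPM in naive libraries. In microbead libraries nearly all of this sum was Ms4a7, at 88.3, 102 and 96.3 CPM, while Cd163 and Lyve1 were at 0 and Mrc1 had reads in 1 library, at 13.1 CPM. Of the 6 tested genes of this list, 5 had a log2 fold change below 0 in microbead against each of naive, sham and contralateral, and 0 passed. The 8 rod photoreceptor markers summed to 394 to 3467 CPM in microbead, 1826 to 3067 CPM in contralateral, 733 to 1412 CPM in sham and 212 to 2683 CPM in naive libraries. Neutrophil markers reached at most 0.615 CPM and lymphocyte markers at most 0.787 CPM in any library. The 9 microglia markers summed to 13700 to 28540 CPM in microbead, 22790 to 34630 CPM in contralateral, 29620 to 32900 CPM in sham and 20000 to 31170 CPM in naive libraries.

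The genes whose pattern over the 14 libraries was most like that of Nfkbia, by Pearson's r of log2 CPM among 8202 candidates, were Id2 (0.90), Ccl12 (0.88), Fcgr1 (0.88), Ifi30 (0.87) and Hsp90ab1 (0.85). Ccl12, a monocyte-attracting chemokine, averaged 2270 CPM in microbead, 262 CPM in contralateral, 429 CPM in sham and 145 CPM in naive libraries. Id2, an inhibitor of helix-loop-helix transcription factors, averaged 268, 58.1, 110.0 and 51.3 CPM in the same groups. For Tnf the 5 nearest were Ccrl2 (0.92), Egr1 (0.86), Cd68 (0.84), Ier3 (0.83) and Hspa1a (0.83). Egr1 and Hspa1a belong to the list of genes that respond to isolation, and Hspa1a averaged 199.7 CPM in microbead, 545 CPM in contralateral, 426 CPM in sham and 78.3 CPM in naive libraries. These coefficients describe libraries that share depth, length profile and group differences.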

How the data were processed

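RNA was measured by SMART-Seq2 in 14 libraries, 1 per retina. The authors deposited expected counts (estimates of the reads from each gene, unscaled per the file headers), and FPKM, which the authors scaled to transcript length and library size. No source used here names the program behind the tables, and Salmon 1.4.0, R 4.0.3, DESeq2 1.30.1 and mm10 are named in the submitters' processing notes without their roles. Coordinates came from GENCODE M21, matched by stable gene identifier.

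After rounding, edgeR 4.0.16 in R 4.3.3 was applied. The filter was filterByExpr (minimum count 10, 14279 genes), libraries were scaled by TMM, and 1 quasi-likelihood model with 1 coefficient per group was fitted to all 14 libraries (10 residual degrees of freedom, common biological coefficient of variation 1.13). Tests were two-sided, with Benjamini-Hochberg adjustment over all genes and a threshold of 0.05. Each standard error was derived from the log2 fold change and its F statistic. CPM are TMM-scaled, and intervals cover 95%. The procedure was also run on counts simulated from the fitted spread, with planted changes and no length trend. That run does not bear on the length difference or on single libraries, and no result above rests on it.

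The text names the 9 members, pathway genes past the threshold or with the smallest 2 p-values of their list in microbead against naive, the 3 isolation-response genes with the smallest p, and the 5 genes most like Nfkbia and Tnf in pattern (mean of at least 10 CPM, prior count 2). Members and lists were chosen with earlier results of these data known. Alternatives were DESeq2 size factors, no filter, a filter of 50 reads, the Wald test of DESeq2 1.42.0 (the likelihood ratio test for the joint difference), the compared groups alone, a replicate block, removal of a length trend (lowess span 0.5), leaving out libraries under 12000 genes and each library in turn. Summing the Bcl2a1 copies was added after the data were seen.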

Additional observations from a re-analysis of the deposited data

How the results depend on the processing

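The 34 member log2 fold changes given above were followed over the alternatives, and the other pairings of gene and groups were not. Values near 0 were among those left out, such as -0.02 for Rel and 0.10 for Tnf in microbead against contralateral. Of the 34, 24 kept their direction and their side of the threshold under every alternative, and 494 of 517 alternative values did so. A value of the same sign that fell short of the threshold in both fits counts as kept. Among the 34, direction turned in 3 cases, for microbead against naive: Nfkb1 to 0.24 with the length trend removed, and Rel to -0.26 both without libraries under 12000 genes and without microbead 1 (-0.26 to 0.54 on leaving out each library). The cause was not tested. The 1 member called in that comparison became 0 with the compared groups alone, the replicate block, the length trend removed or without libraries under 12000 genes, 3 in the Wald test of DESeq2, and 0 to 2 on leaving out a library. For Nfkbia the adjusted p was 0.0577 with the compared groups alone, 0.0719 with the block and 0.062 without libraries under 12000 genes. Members called in microbead against contralateral were 1 without a filter, 3 by the Wald test and 0 to 1 on leaving out a library. Contralateral against naive and against sham had 1 each by the Wald test. In the joint test 1 member was called with DESeq2 size factors, 1 without a filter, 3 by the likelihood ratio test and 0 to 1 on leaving out a library. Among all genes, microbead against naive called 30, against 46 with size factors, 162 without a filter, 9 with the groups alone, 1 with the block, 1 with the length trend removed, 574 by the Wald test and 1 to 173 on leaving out a library. Microbead against sham called 2, against 139 without a filter, 1 with the groups alone, 0 with the block, 1 with the length trend removed, 7 without libraries under 12000 genes, 471 by the Wald test and 0 to 153 on leaving out a library. Microbead against contralateral called 4, against 157, 0 with the block, 0 with the length trend removed, 9, 666 and 1 to 171 under the same settings apart from the groups alone. Sham against naive called 0, against 14 without a filter and 28 by the Wald test. Contralateral against naive called 0, against 21, 69 and 0 to 11 on leaving out a library, and contralateral against sham 0, against 22, 68 and 0 to 22. The joint test called 32, against 54 with size factors, 314 without a filter, 1 with the block, 2 with the length trend removed, 11 without libraries under 12000 genes, 478 by the likelihood ratio test and 5 to 84 on leaving out a library. Same-numbered libraries deviated with correlations of -0.05 to 0.14, and in no pair of groups did every pair exceed 0.1. With 3 or 4 such pairs in each comparison, these values cannot tell whether a number marks a shared mouse. The block therefore stands for the replicate number, with no mouse assigned to it. With the length trend removed, all genes tested had a median of -0.22 (log2) in microbead against contralateral, 0.19 in contralateral against naive and 0.21 in contralateral against sham, beside -0.08, -0.06 and -0.04 in the reported fit. Depth limits microbead 1 most, where Tnfaip3 had 5 reads.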

Other observations

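Bcl2l1, a target of NF-kB that encodes the survival protein BCL-XL, was chosen after its values were seen. It had 39.5, 25.7 and 102 CPM in microbead libraries, against 120.3, 151, 167 and 154 CPM in naive libraries, without overlap. Its log2 fold change was -1.40 ± 0.45 and did not pass over all genes (edgeR quasi-likelihood test, adjusted p = 0.248, and 0.0306 to 0.534 over the alternatives). It was -2.20 without microbead 3, where the adjusted p was 0.0306. The value for Bcl2a1b, of the same protein family, was 1.305 ± 0.35.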
